A study of Mus musculus with 6 samples.

Results

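Histone deacetylases (HDACs) of classes I and II are described here by the FPKM of 10 genes, Hdac1 to Hdac10, in retinoic acid-treated mouse embryonic stem cells. The deposited values carry no named unit and were read as FPKM, a read count per length of transcript and per sequencing depth. On that reading levels of different genes can be set side by side, with less certainty where genes share reads or overlap. The genes were taken by symbol from the deposited table of 24002 genes, and all 10 were found. The study grew R1, a mouse embryonic stem cell line, with 15% serum replacement and 1000 U/ml LIF, formed embryoid bodies in hanging drops for 48 h, and kept them in retinoic acid up to day 6. The labels give the dose as 0.5 mM, a unit that is uncertain because such protocols usually use micromolar doses. Polyadenylated RNA of 3 samples, replicates 1 to 3, was sequenced, and 3 more samples were profiled by ATAC-seq, an assay of open chromatin that was not used here. Every sample shares this line, treatment and day, and there is no untreated or earlier sample. The values are therefore levels at day 6 and show no change.

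HDACs remove acetyl groups from lysines, on histone tails and on other proteins. Class I enzymes (Hdac1, Hdac2, Hdac3 and Hdac8) are mostly nuclear, and Hdac1, Hdac2 and Hdac3 work inside corepressor complexes that carry them to DNA. Class IIa enzymes (Hdac4, Hdac5, Hdac7 and Hdac9) have little catalytic activity of their own, bind Mef2 transcription factors, and leave the nucleus on 14-3-3 proteins when kinases phosphorylate them. Class IIb holds Hdac6, a cytoplasmic deacetylase of tubulin, and Hdac10, a deacetylase of polyamines. In the nervous system Hdac1 and Hdac2 act in the step from progenitor to neuron, and class IIa enzymes respond to activity in mature neurons.

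The labelled cell type is embryonic stem cell, but the pluripotency genes Nanog and Pou5f1 had mean levels of 0.0879 and 0.815 FPKM. Of 8 pluripotency markers, 3 reached 1 FPKM in each replicate, Esrrb, Zfp42 and Tbx3, with means of 6.17, 2.14 and 1.66 FPKM. All 8 neural progenitor markers, all 8 neuronal markers and all 10 extraembryonic endoderm markers did so. Summed FPKM of the neuronal markers was 1985, 1904 and 1894 in replicates 1, 2 and 3, and that of the endoderm markers 401, 540 and 548. None of 8 heart and muscle, 6 endothelial, 6 blood and immune or 6 feeder fibroblast markers reached 1 FPKM in each replicate, and Cd3e and Hbb-b1 were listed at 0 in all 3. The 6 trophoblast markers summed to 58.0, 88.9 and 87.9 FPKM, nearly all of it Krt8, Krt18 and Gata3, while Elf5, Tfap2c and Hand1 lay at or below 0.102 FPKM. In such a mixture, fewer cells of a type and less RNA per cell cannot be told apart. The labels do not name separate cultures for the replicates, so their spread may be technical. Read totals are unknown. Steps between low values put replicate 1 at 1.56 times the depth of replicate 2 and 1.17 times that of replicate 3.

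All 10 HDAC genes had 1 FPKM or more in each replicate, the level taken here as expressed, against 50.7% of all genes in the table. Their means ran from 1.56 FPKM for Hdac9 to 94.8 FPKM for Hdac2, with a median of 9.91 FPKM, close to the median of 10 FPKM over the 12171 expressed genes. At 10 FPKM or more in each replicate stood 5 members, Hdac2, Hdac3, Hdac1, Hdac5 and Hdac6, against 24.5% of all genes. At a threshold of 5 FPKM, 6 members counted as expressed, against 35.7% of all genes. No member reached 100 FPKM in each replicate, a level held by 2.02% of genes.

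**Figure D1:**
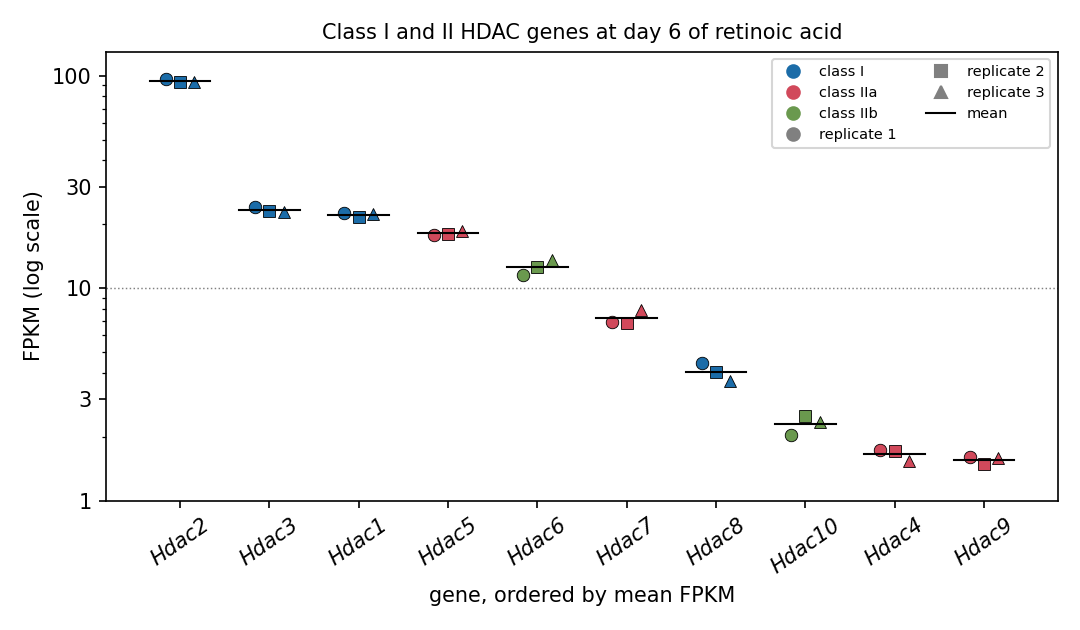
FPKM of each HDAC gene (log axis) in the 3 RNA-seq replicates, ordered by mean. Symbols are replicates, colours are classes, black bars are means and the dotted line is at 10 FPKM. Hdac2 stands alone near 95 FPKM and Hdac4 and Hdac9 share the lowest place, between 1.49 and 1.73 FPKM.

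The order of levels was Hdac2, Hdac3, Hdac1, Hdac5, Hdac6, Hdac7, Hdac8, Hdac10, Hdac4, Hdac9. Of the 9 neighbouring pairs in this order, 8 did not overlap between their replicates. The same values set the order, and no such count was made for other genes, so this is not a trait of HDAC genes. The exception was the lowest pair, in which Hdac4 lay above Hdac9 in 2 of 3 libraries. Hdac3 and Hdac1 were close as well. The lowest Hdac3 value of 22.9 FPKM lay 1.01-fold above the highest Hdac1 value of 22.6 FPKM. With 3 values against 3, an exact two-sided permutation test cannot go below 0.1, so the pairs are described by their ranges and no test was made.

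**Figure D2:**
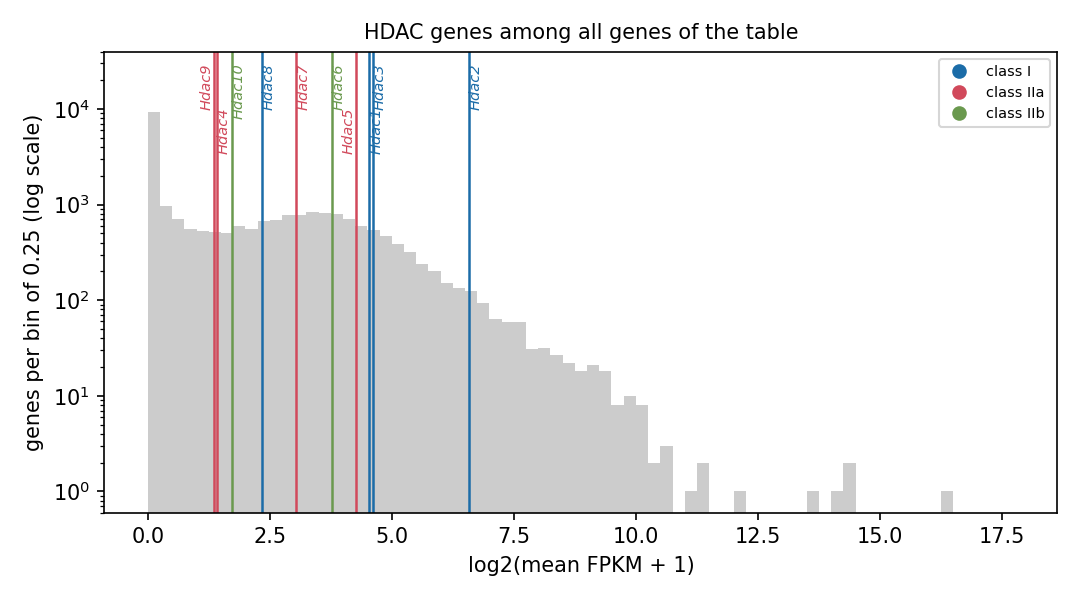
Number of genes (log axis) in bins of 0.25 of log2(mean FPKM + 1) over all 24002 genes, with a line for each HDAC gene coloured by class. The members spread over most of the range of expressed genes, from Hdac9, above 4.28% of expressed genes, to Hdac2, above 95.5%.

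Promoter sequences from RefSeq (build GRCm38.p6) are shown for the highest gene and for the 2 lowest, since these genes differ widely in level. Each run is the 250 bases before an annotated start, 5′ to 3′ on the gene's strand, with CpG dinucleotides in capitals. Hdac2 is on the plus strand at chr10:36974294-36974543, Hdac4 on the minus strand at chr1:92180342-92180591, and Hdac9 has 2 windows on the minus strand, the first at chr12:34528890-34529139 and the second at chr12:34917096-34917345.
Hdac2: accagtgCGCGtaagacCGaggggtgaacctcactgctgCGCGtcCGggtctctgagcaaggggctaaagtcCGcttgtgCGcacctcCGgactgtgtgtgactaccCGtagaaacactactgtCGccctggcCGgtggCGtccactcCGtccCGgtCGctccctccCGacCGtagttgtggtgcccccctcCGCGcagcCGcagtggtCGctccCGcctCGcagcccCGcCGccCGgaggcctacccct
Hdac4: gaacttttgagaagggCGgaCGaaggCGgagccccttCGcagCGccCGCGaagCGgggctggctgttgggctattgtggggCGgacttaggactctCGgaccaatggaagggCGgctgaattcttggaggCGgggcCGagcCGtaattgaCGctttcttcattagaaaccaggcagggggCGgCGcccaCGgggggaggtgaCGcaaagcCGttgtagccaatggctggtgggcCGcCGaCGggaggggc
Hdac9 window 1: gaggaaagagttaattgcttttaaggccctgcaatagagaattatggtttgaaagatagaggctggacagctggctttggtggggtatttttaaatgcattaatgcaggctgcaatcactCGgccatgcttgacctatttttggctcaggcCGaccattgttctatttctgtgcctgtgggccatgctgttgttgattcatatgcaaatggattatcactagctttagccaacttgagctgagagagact
Hdac9 window 2: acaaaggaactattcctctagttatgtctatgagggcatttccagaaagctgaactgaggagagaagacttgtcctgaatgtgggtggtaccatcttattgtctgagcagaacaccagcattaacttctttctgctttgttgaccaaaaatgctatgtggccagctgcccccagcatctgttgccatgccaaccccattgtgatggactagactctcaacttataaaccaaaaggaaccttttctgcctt

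The Hdac2 window held 27 CpG, an observed count of 0.93 times that expected from its C and G content. The windows of Hdac9 held 2 and 0 CpG, with ratios of 0.17 and 0. Hdac4 had nearly the same low FPKM as Hdac9, but its window held 23 CpG and a ratio of 0.93, equal to that of Hdac2. So the lowest pair of genes had opposite kinds of start, and a CpG-dense start went with the highest level and with a level near the lowest. Of the 10 members, 7 had a window in the table, 11 windows in all, and Hdac1, Hdac3 and Hdac10 were not analysed in this respect. A ratio of 0.6 or more was found in 5 of the 11 windows, those of Hdac2, Hdac4 and Hdac6 and 2 of the 4 of Hdac7, against 34.0% of all 32851 windows and 68.0% of the windows of expressed genes. In the others the ratio was 0.52 for Hdac5, 0.41 for Hdac8, and 0.22 and 0.32 for the outer windows of Hdac7. Which annotated starts these cells use is not shown by FPKM per gene, for Hdac7 and Hdac9 with several windows as for the other members.

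**Figure D3:**
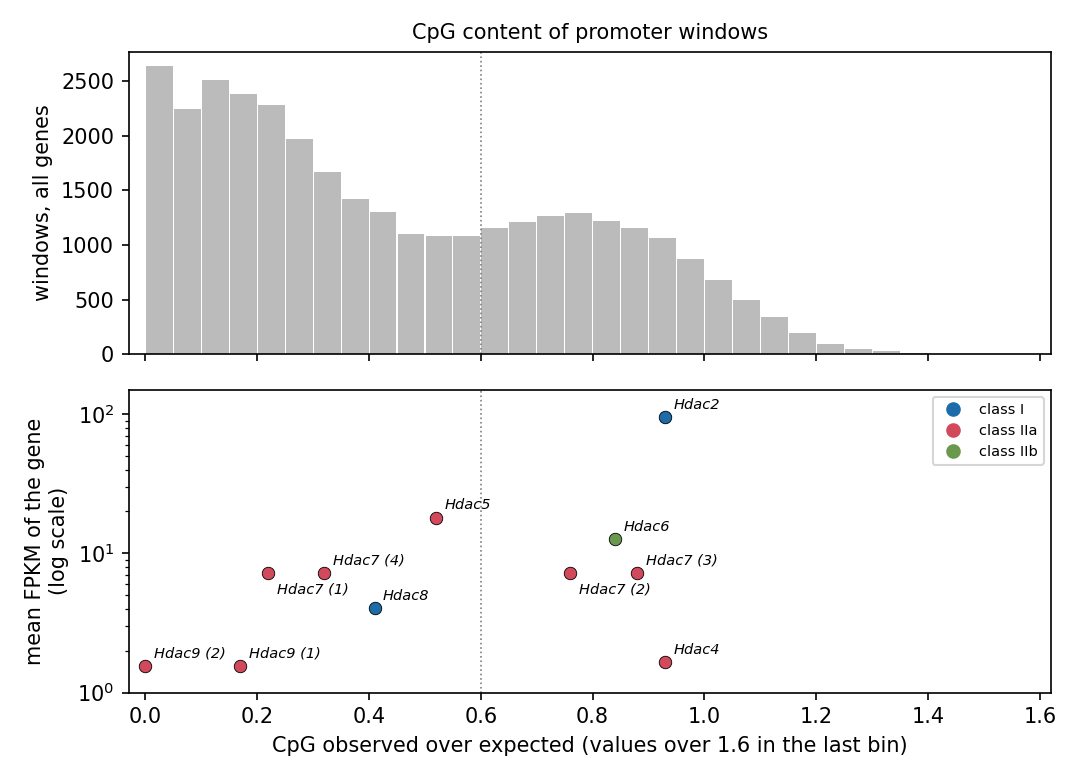
Top, number of promoter windows of all genes by the ratio of observed to expected CpG in 250 bases before the start. Bottom, the same ratio for the 11 windows of 7 HDAC genes against the mean FPKM of the gene (log axis), with window numbers in brackets and the dotted line at 0.6. Hdac2 and Hdac4 share a ratio of 0.93 at 94.8 and 1.66 FPKM.

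Short motifs known from promoters were counted on both strands of the same windows. GGGCGG, the core of the Sp1 site, which itself contains a CpG, was found in 5 of 11 windows, against 32.7% of all windows and 59.5% of those of expressed genes, with 4 matches each in Hdac4 and Hdac6 and 1 each in Hdac2, Hdac5 and the second window of Hdac7. CCAAT, the site of NF-Y, was found in 4 of 11, against 33.8% of all windows and 35.4% of those of expressed genes, with 2 matches each in Hdac4, Hdac5, Hdac6 and Hdac8. Neither motif was in the windows of Hdac9. These are matches of letters and do not show that a factor binds.

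Hdac5, the highest class IIa gene, is shown with a further motif, chosen after its sequence was seen. Its window on the minus strand at chr11:102230173-102230422 holds CTATTTTTAG, a form of the site that Mef2 factors bind, here in capitals.
Hdac5: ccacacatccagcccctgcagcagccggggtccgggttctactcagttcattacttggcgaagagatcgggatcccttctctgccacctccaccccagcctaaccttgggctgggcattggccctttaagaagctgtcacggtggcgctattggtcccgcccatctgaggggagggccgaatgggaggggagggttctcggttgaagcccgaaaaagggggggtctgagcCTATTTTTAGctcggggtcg

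The match lies 20 to 11 bases before the annotated start. The Mef2 consensus reads the same on both strands and overlaps neither motif above. It matched in 959 of 32851 windows, 2.92%, in 1.36% of those of expressed genes, and in no other of the 11 windows of the members. As the motif was picked from the Hdac5 window, its rarity elsewhere is no result about Hdac5. Mef2 factors are the DNA-binding partners of class IIa HDACs, but binding here and any link to the Hdac5 level were not tested.

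Class I genes made up most of the summed transcript level of the 10 members, a sum that leaves out Hdac11. Their summed FPKM was 148, 142 and 143 in replicates 1, 2 and 3, a share of 76.9% ± 1.16 (SD, n = 3) of the sum over the 10 members. Hdac2 by itself gave 50.4% ± 0.626 (SD, n = 3) of it. Without Hdac1 and Hdac2 the class I share was 38.8%, because only Hdac3 and Hdac8 then remain in it, and class IIa stood above it at 40.3%, with class IIb at 21%. Class IIa genes gave 15.2% ± 0.502 and class IIb genes 7.92% ± 0.691 (SD, n = 3).

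Hdac2, a deacetylase of the Sin3, NuRD and CoREST complexes, stood at 97.0, 93.5 and 93.9 FPKM in replicates 1, 2 and 3, the printed window with 27 CpG being its start. Only 566 of 24002 genes, Hdac2 included, had a mean as high or higher. Hdac1, its close paralogue in the same complexes, stood at 22.6, 21.7 and 22.3 FPKM. The groups of values were far apart, and Hdac2 was 4.26-fold ± 0.0511 higher (SD, n = 3), in 3 of 3 libraries. On the log2(FPKM + 1) scale the difference was 2.04 ± 0.017. A pseudogene of Hdac1 is annotated in RefSeq and has no row of its own in the table, and how reads shared between copies were counted is not given, so the Hdac1 level carries that uncertainty.

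Hdac3, the catalytic subunit of the NCoR complex, stood at 24.2, 23.1 and 22.9 FPKM. It was 1.05-fold ± 0.0238 the level of Hdac1 (SD, n = 3), above it in 3 of 3 libraries. Hdac8, which works outside these complexes and deacetylates the cohesin subunit Smc3, was the lowest class I gene at 4.46, 4.03 and 3.65 FPKM. Hdac3 exceeded it 5.82-fold ± 0.431 (SD, n = 3). Hdac8 also had the widest spread of the class, with a coefficient of variation of 10% against 2.02% to 2.95% for the other class I genes.

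Among class IIa genes, Hdac5 led at 17.7, 18 and 18.6 FPKM, its start being the window printed with the Mef2-type site. Hdac7, known for its role in endothelium and thymocytes, stood at 6.95, 6.82 and 7.93 FPKM. The endothelial markers Kdr and Pecam1 had means of 0.438 and 0.0700 FPKM, and Cd3e of T cells was listed at 0. Hdac7 overlaps Slc48a1 in RefSeq, a gene at 13.3, 12.5 and 14 FPKM here, and since strand use in counting is not given, their reads may not be fully told apart. Hdac4, a regulator of muscle, cartilage and neurons, stood at 1.73, 1.72 and 1.54 FPKM. Hdac9, whose short form lacks the deacetylase domain, stood at 1.61, 1.49 and 1.59 FPKM, and FPKM per gene does not separate its forms. Hdac5 was 10.9-fold ± 1.01 above Hdac4, 11.6-fold ± 0.537 above Hdac9 and 2.51-fold ± 0.147 above Hdac7 (SD, n = 3), and its values overlapped with none of theirs.

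In class IIb, Hdac6 stood at 11.5, 12.6 and 13.6 FPKM, and Hdac10 at 2.04, 2.49 and 2.35 FPKM. Their ranges were apart, with Hdac6 5.50-fold ± 0.395 above Hdac10 (SD, n = 3). Both were lowest in replicate 1.

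The levels varied little between replicates. The SD of log2(FPKM + 1) had a median of 0.050 over the members, from 0.028 for Hdac1 to 0.116 for Hdac8, and over the 12432 genes whose mean reached 1 FPKM the median was 0.060. Over the 11124 genes with a mean within the range of the members it was 0.059. The order of members and filtered genes turned with a pseudocount of 0.1, to 0.0731 for the members against 0.067. Without the filter it was 0.050 against 0.042 over all 24002 genes. Many of these lie below 1 FPKM, where this scale flattens differences, so that turn says little about the members. The most variable members, Hdac8, Hdac6, Hdac7 and Hdac10, had an SD of 0.103 to 0.116, and their highest replicate lay 1.16 to 1.22 times above the lowest.

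By replicate, all 4 class I genes were highest in replicate 1, against 36.3% of the 12432 genes whose mean reached 1 FPKM. Of the 6 class II genes, Hdac4 and Hdac9 were highest there, and Hdac5, Hdac6 and Hdac10 were lowest there, a place held by 36.5% of genes. Whether the classes differ in this was not tested, and the steps were small. Hdac2 deviated by 0.03 (log2) from its own mean in replicate 1, Hdac8 by 0.12 and Hdac6 by -0.11. Of the members with the widest spread, Hdac8 lay at 0.12, 0.00 and -0.11 and Hdac6 at -0.11, 0.00 and 0.11 in replicates 1, 2 and 3. These genes were picked after their values were seen, and no relation between them was tested. Replicate 1 was also the library in which all 8 neuronal markers were highest and 9 of 10 endoderm markers were lowest, and the part of this in the HDAC values was not tested.

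**Figure D4:**
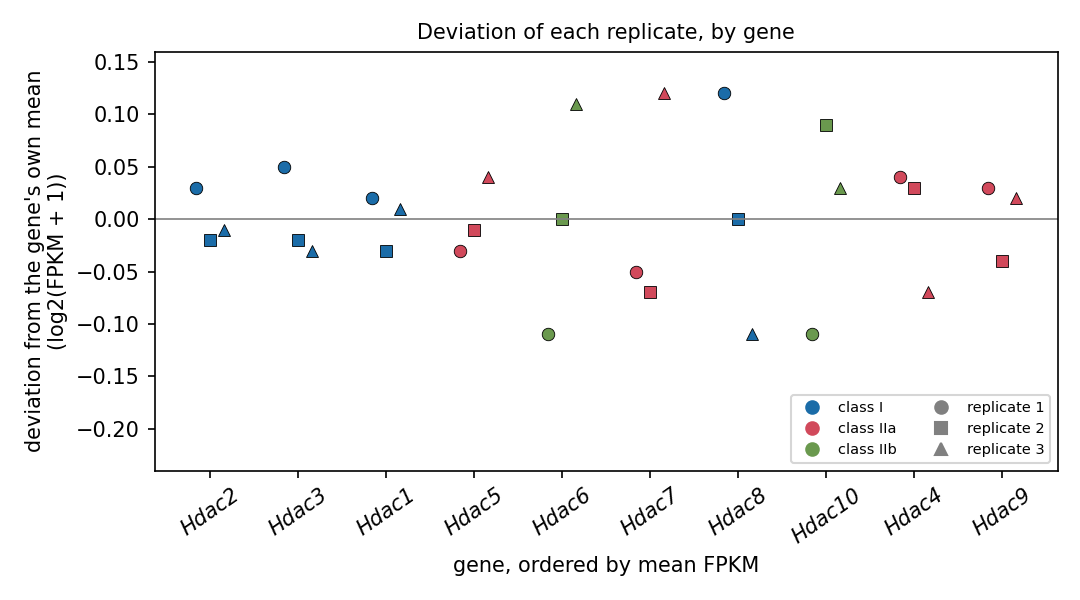
Deviation of each replicate from the gene's own mean in log2(FPKM + 1), for the 10 HDAC genes ordered by mean FPKM. Symbols are replicates and colours are classes. The blue circles of class I in replicate 1 lie above 0 in all 4 genes, and no point lies beyond 0.12 on either side.

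The complexes that hold Hdac1, Hdac2 and Hdac3 were expressed almost completely. Of 45 distinct genes of 5 corepressor groups, 44 were expressed, against 50.7% of all genes, with a median of 15 FPKM. None exceeded Hdac2, and 13 exceeded Hdac1. In NuRD, which joins deacetylation to nucleosome remodelling, all 12 genes were expressed, led by the remodeller Chd4 at 83.5 ± 1.48 FPKM (SD, n = 3), Mbd3 at 60.3 and Rbbp7 at 56.8. In the Sin3 complex 15 of 16 were, with the scaffold Sin3b at 52.2 FPKM and Sap30 at 40.0 among the highest, and Sap25 at 0.119, 0.299 and 0.0361 FPKM below the threshold. Rbbp7 and Rbbp4 belong to both lists.

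In the CoREST complex, in which Hdac1 and Hdac2 work beside a histone demethylase, all 9 genes were expressed, with that demethylase, Kdm1a, at 54.2 FPKM and Rcor2 at 45.9. All 6 genes of the MiDAC and Mier complexes were expressed, with a median of 6.86 FPKM. All 4 genes listed for the Hdac3 complex were expressed, with Gps2 at 22.0 and Ncor1 at 21.8 FPKM, near the 23.4 FPKM of Hdac3 itself.

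**Figure D5:**
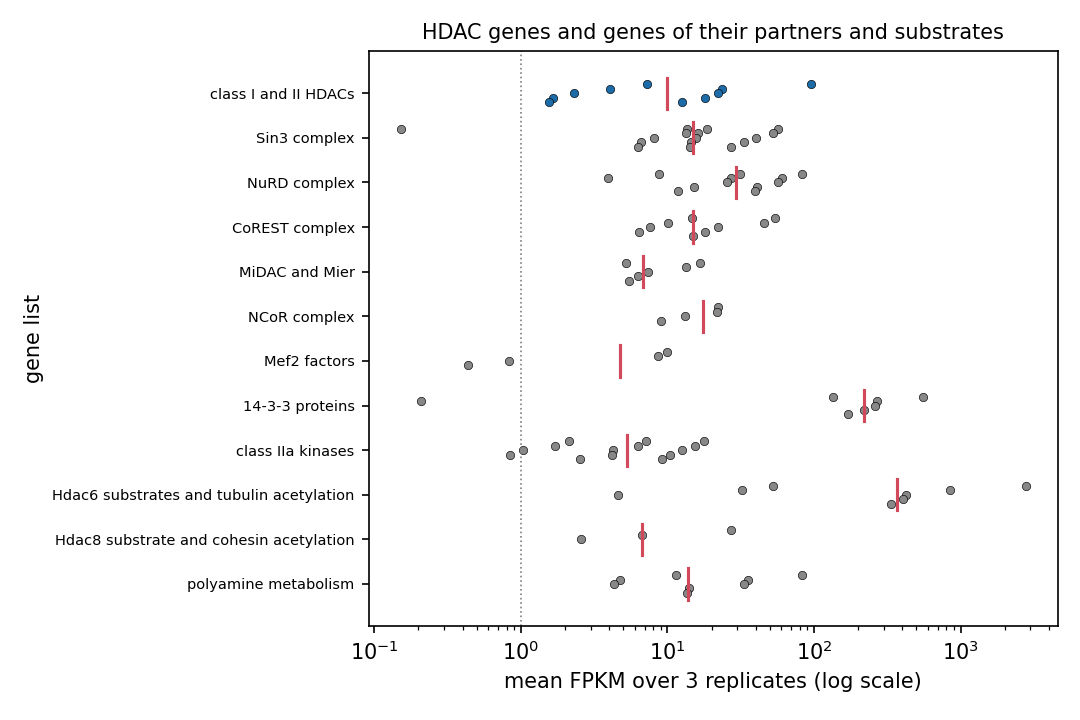
Mean FPKM over 3 replicates (log axis) of the HDAC genes (blue) and of genes in lists of their complexes, partners and substrates (grey). Red bars are list medians and the dotted line is at 1 FPKM. The 14-3-3 and Hdac6 substrate lists have the highest medians, 218 and 369 FPKM.

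Genes of the binding partners of class IIa HDACs, and of kinases that act on them, were unevenly expressed. Beside the counts that follow, 50.7% of all genes were expressed. Of the 4 Mef2 genes, Mef2a and Mef2d were expressed at 10 and 8.64 FPKM, while Mef2b stood at 0.837, 0.898 and 0.762 FPKM and Mef2c at 0.461, 0.435 and 0.418 FPKM in the replicates. Of the 7 genes of 14-3-3 proteins, which hold phosphorylated class IIa HDACs in the cytoplasm, 6 were expressed, at means up to 554 FPKM for Ywhae. Sfn, an epithelial form, was the remaining gene at a mean of 0.208 FPKM. Of 14 genes of kinases from families that phosphorylate class IIa HDACs, 12 were expressed with a list median of 5.29 FPKM, led by Camk2g at 17.7, Camk2b at 15.5 and Sik1 at 12.5 FPKM. Prkd1 (0.855, 1.02 and 0.668 FPKM) and Camk4 (0.948, 1.14 and 0.996 FPKM) were below the threshold in replicates 1 and 3 and above it in replicate 2. At a threshold of 5 FPKM, 7 of the 14 kinase genes remained, against 35.7% of all genes.

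Genes of substrates of Hdac6 and Hdac8, of enzymes that act on these substrates, and of polyamine metabolism were listed as well. Their counts stand beside 50.7% of all genes expressed. Of 8 genes listed for Hdac6, all were expressed, with the alpha-tubulin gene Tuba1a at 2807 FPKM and the chaperone gene Hsp90ab1 at 850 FPKM among the highest. Atat1, which encodes the acetyltransferase that opposes Hdac6 on tubulin, stood at 52.5, 54.1 and 51.8 FPKM, above Hdac6 in every library. Smc3, the substrate of Hdac8, stood at 27.1 FPKM, and Esco1 and Esco2, which acetylate it, at 6.66 and 2.56 FPKM, on either side of the 4.05 FPKM of Hdac8. The 8 listed genes of polyamine metabolism concern the pathway to which the substrates of Hdac10 belong. Of these, 7 were expressed, led by Odc1 at 83.0 and Srm at 35.2 FPKM. The remaining gene, Amd1, stood at 0.025, 0.0357 and 12.9 FPKM in replicates 1, 2 and 3. With Amd2, a gene of closely similar sequence, the sum was 24.5, 25 and 25.9 FPKM, so the value of Amd1 alone is uncertain.

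All 8 deacetylase genes outside classes I and II were expressed, against 50.7% of all genes. Hdac11, the single class IV enzyme, stood at 15.8, 14.4 and 15.5 FPKM, above Hdac6 by 1.22-fold ± 0.135 and above Hdac10 by 6.71-fold ± 0.995 (SD, n = 3), and below Hdac5 in every library. The 7 sirtuins, which need NAD, ranged from 5.2 FPKM for Sirt4 to 24.3 FPKM for Sirt2, which also deacetylates tubulin.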

How the data were processed

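RNA-seq of polyadenylated RNA was available for 3 samples, and ATAC-seq for 3 others, grouped by their titles. Per the submitters' processing notes, Bowtie and Cufflinks were used with build mm9, and no version or setting was found in the labels. The deposited table has no named unit. Its values were read as FPKM, calculated by the authors, because Cufflinks is named. The 495233 deposited ATAC-seq regions are in mm9 and were not used, since gene positions were at hand in GRCm38.p6 only.

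A gene counted as expressed when each replicate had 1 FPKM or more. Means and SDs are over 3 replicates, and log values are log2(FPKM + 1), which understates differences of low genes. No test was made, because the design has 1 condition. Relative depth was taken from the most common ratio of values between 0.001 and 0.1 FPKM, assumed to mark equal read numbers. The members and the 13 partner and 9 marker lists were chosen with earlier results of these data known. From partner lists, the 3 highest genes and any below 1 FPKM in a replicate could be named. Atat1, Sirt4, Kat2b, Crebbp and Ep300 were named outside this rule for their role, and Rbbp4 because it belongs to both the Sin3 and NuRD lists. Slc48a1 was added for its overlap. The values of 1 listed gene are not reported here. Mideas was matched by an older symbol. With 3 replicates of 1 condition, no genes were ranked by likeness of pattern. As alternatives, 0.5 and 5 FPKM were tried as thresholds, with 0.1 as pseudocount, upper quartile scaling and leaving out each replicate. Functions were tested on simulated data. Python 3.11.15, pandas 2.3.3 and matplotlib 3.10.9 were used.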

Additional observations from a re-analysis of the deposited data

How the results depend on the processing

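No paired analysis was possible because the RNA-seq and ATAC-seq samples share replicate numbers but the regions form a joint set and no comparison was made between the assays. Alternatives at ATAC-seq regions were not run, since they need gene positions in mm9. Of 159 alternative values over 35 results, 148 stayed within the limits set for a change. All values were positive, so a change of sign could not occur. For levels, shares and the Hdac2 ratio the limit was the SD. Leaving out 1 of 3 replicates cannot move a mean that far, so those values had to stay within it. At a threshold of 5 FPKM, expressed members went from 10 to 6 and expressed class IIa kinase genes from 12 to 7. Without Hdac1 and Hdac2 the class I share of summed FPKM was 38.8% in place of 76.9%, below the class IIa share of 40.3%. With a pseudocount of 0.1 the log2 ratio of Hdac2 over Hdac1 was 2.09 in place of 2.04. The median SD of the members, 0.0497 (log2), was 0.0414 to 0.0640 with a replicate left out, 0.0525 with upper quartile scaling and 0.0731 with a pseudocount of 0.1, against which the median over genes of at least 1 FPKM was 0.067. Without the filter on low values the median over all genes was 0.042, below that of the members. Many of those genes lie below 1 FPKM, where log2(FPKM + 1) flattens differences. Upper quartile scaling and leaving out a replicate kept all 10 members expressed. In the 300-base window chosen after the data were seen, 6 of 11 promoter windows had a CpG ratio of 0.6 or more, in place of 5. Replicate 2 was the shallowest library, and no counting interval can be given without read totals.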

Other observations

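Histone acetyltransferase genes, whose products add the acetyl groups that HDACs remove, were all expressed, against 50.7% of all genes. The 10 genes had means from 3.60 FPKM for Kat2b to 21.5 FPKM for Hat1, a cytoplasmic enzyme of new histones, with a median of 11.7 FPKM. The coactivators Crebbp and Ep300 stood at 12.5 and 12.0 FPKM. No gene of this list approached the 94.8 FPKM of Hdac2.

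Among the polyamine genes, Amd1, which encodes S-adenosylmethionine decarboxylase, was listed at 0.025, 0.0357 and 12.9 FPKM in replicates 1, 2 and 3, and Amd2, a gene of closely similar sequence chosen after its values were seen, at 24.5, 25 and 13 FPKM. Their sum was 24.5, 25 and 25.9 FPKM. The split between the copies therefore differed between libraries while the sum stayed close, and the value of either copy alone is uncertain.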
